A study of Mus musculus with 4 samples.

Results

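Bone marrow-derived macrophages without the creatine transporter gene Slc6a8 were compared with wild-type macrophages before any stimulation, by the position of their open chromatin. The assay was ATAC-seq, which uses the transposase Tn5 to cut and tag DNA that is not wrapped tightly in chromatin, and the deposited data are lists of peaks, each with a position and a score. The comparison uses 2 of the 4 libraries of the study: wild-type untreated (WT) and Slc6a8-/y untreated (KO), the latter from mice whose only copy of this X-linked gene is null. Both came from C57BL/6 mice, and bone marrow cells were grown for 5 days with 10% M-CSF, the growth factor that turns marrow progenitors into macrophages, before 50000 cells were taken per library. The other 2 libraries are the same genotypes after IL-4 (10 ng/mL for 6 h), and they serve here only as separate libraries in which a peak can be looked up. The number, age and pooling of the mice are not given in the sources used here.

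A KO peak that overlapped no WT peak by even 1 bp was called gained, and a WT peak that overlapped no KO peak was called lost. Each group held 1 library. No difference can therefore be set against replicate error, no p-value is given, and "lost" and "gained" describe these libraries, not the genotypes. Brackets hold exact Clopper-Pearson 95% intervals, which cover counting error only. The depth of the libraries is unknown. The score is the authors' value for each peak, between 50.01 and 3100 in both lists, and it ranks peaks within a list only.

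Creatine is made in 2 steps, by the enzymes encoded by Gatm and Gamt, and is otherwise taken up from outside by the transporter that Slc6a8 encodes. Creatine kinases (Ckb, Ckm, Ckmt1, Ckmt2) move a phosphate between creatine and ATP, so that phosphocreatine buffers and carries cellular energy, much of which oxidative phosphorylation in mitochondria supplies. Macrophage identity rests on lineage transcription factors, PU.1 (Spi1) and the C/EBP proteins among them, which bind enhancers and promoters and keep them accessible.

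The WT list held 17339 peaks covering 8.39 Mb and the KO list 13714 covering 7.87 Mb. The KO peaks were wider (median 530 bp against 438 bp), and the median score was 94.3 in the KO list and 101.1 in the WT list. At Slc6a8 itself (chromosome X, 73673133 to 73682502) and within 10 kb of it no library had a peak, so the labels could not be checked at the targeted gene. The labelled cell type was checked at its markers. A peak at a gene edge in both untreated libraries was found for 16 of 27 macrophage lineage factors. The same held for 12 of 36 macrophage surface receptor and complement genes, a share near that of all protein-coding genes (7091 of 21883). Among markers of fibroblasts (11 genes), mast cells and basophils (9) and neurons and hepatocytes (10) no edge peak was found in either. The B cell (9 genes), T cell (10), neutrophil (13), erythroid (10) and dendritic cell (8) lists had at most 3 genes with one in either library. The dendritic cell list had 2 of 8 in WT and 3 of 8 in KO, beside 17 and 16 of 36 surface receptor and complement genes. Its share is thus not clearly apart from theirs.

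Of the WT peaks 5565 were lost, which is 32.1%, and of the KO peaks 2106 were gained, which is 15.4%. The log2 ratio of gained over lost peaks was -1.40 (-1.47 to -1.33). Peaks of both libraries met in 11555 of the 19226 regions that the lists form when merged. The WT list is the longer one, and list length moves with the depth and signal of a library as well as with the cells. Lists cut to their 9930 highest-scoring peaks, which left out WT peaks under 89.57 and KO peaks under 67.78, gave 2167 lost and 2193 gained peaks (log2 ratio 0.02), a balance that lists of equal length impose. The excess of lost peaks is therefore given for the full lists only, and the results that follow are about which peaks differed.

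The creatine genes gave the first of these. Gatm encodes the mitochondrial amidinotransferase that joins glycine and arginine in the first step of creatine synthesis. Its start site carried a peak in WT (score 118.65, chromosome 2, 122611103 to 122611518, mm10), none in KO, and peaks of 92.79 in WT IL-4 and 59.22 in KO IL-4. The peak was thus missing from KO untreated alone, and it was also lost at equal list length. Gamt, whose methyltransferase completes creatine, kept its edge peak in all 4 libraries, with scores of 175.16 in WT, 176.87 in KO, 104.01 in WT IL-4 and 152.23 in KO IL-4. Of the 4 WT peaks at this gene or within 10 kb of it, the one of 80.58, 3614 bp from the gene end, had no KO counterpart.

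Among the creatine kinase genes, the muscle form Ckm had an edge peak in both WT libraries (78.27 untreated, 74.79 with IL-4) and in neither KO library. The brain form Ckb, which is also the cytosolic kinase of many non-muscle cells, showed the reverse in the untreated cells, with an edge peak in KO (62.41), none in WT, 56.47 in WT IL-4 and none in KO IL-4. An edge can be either end of a gene. The WT peak of Ckm lay over the high-coordinate end of its span (19411094 to 19421583). The KO peak of Ckb lay 371 bp outside the low-coordinate end of its span (111669355 to 111672338). Neither was shown to be a start site. A peak farther out, 5472 bp from the end of Ckb in KO, was present in both untreated libraries (76.29 in WT, 51.24 in KO). Ckmt1, a mitochondrial kinase, had a peak outside the gene, 2206 bp from its end in WT, in every library (69.3 in WT, 130.44 in KO, and after IL-4 70.46 in WT and 77.34 in KO), and Ckmt2 had none in any. The scores at Ckm and Ckb lie at or below percentile 34.3 of the untreated lists, and both genes fell below the score limit of the equal-length lists. Of the 16 listed genes of arginine, ornithine and methyl group metabolism 10 had an edge peak in WT, and all 10 had one in KO as well; the interval of 0 lost of 10 reaches 30.8%. Equal list length made 1 of them gained.

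The promoters below were printed because their peak was lost or gained in KO and lies over the start site of a creatine, macrophage or ribosomal gene that the results turn on. Each run is the 150 bases before the start site, read 5′ to 3′ on the gene's strand, from RefSeq (GRCm38.p6, the coordinates of mm10), and each lies wholly inside the peak named. Capitals mark matches to the motif set described further on, in either orientation. The first 4 belong to lost peaks and the last 3 to gained peaks.
Gatm, chr2:122611278-122611427, minus strand: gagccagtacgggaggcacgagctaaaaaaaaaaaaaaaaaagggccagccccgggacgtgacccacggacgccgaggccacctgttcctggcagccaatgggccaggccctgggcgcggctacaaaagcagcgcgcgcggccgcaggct
Cebpb, chr2:167688765-167688914, plus strand: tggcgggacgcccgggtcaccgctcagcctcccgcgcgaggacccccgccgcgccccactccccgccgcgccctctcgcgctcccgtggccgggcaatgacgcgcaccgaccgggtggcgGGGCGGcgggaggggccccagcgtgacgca
Cgas, chr9:78443238-78443387, minus strand: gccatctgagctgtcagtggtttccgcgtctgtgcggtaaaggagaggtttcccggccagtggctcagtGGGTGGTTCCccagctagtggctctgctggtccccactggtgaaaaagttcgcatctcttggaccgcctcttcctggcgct
Rpl28, chr7:4792815-4792964, plus strand: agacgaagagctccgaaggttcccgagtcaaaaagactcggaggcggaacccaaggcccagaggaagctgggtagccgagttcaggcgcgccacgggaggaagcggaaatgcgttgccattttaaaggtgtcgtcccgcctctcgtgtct
Ctso, chr3:81932451-81932600, plus strand: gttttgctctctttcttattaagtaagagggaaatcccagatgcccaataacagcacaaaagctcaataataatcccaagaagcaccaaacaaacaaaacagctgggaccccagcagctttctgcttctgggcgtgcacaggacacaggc
Rpl39, chrX:37085223-37085372, minus strand: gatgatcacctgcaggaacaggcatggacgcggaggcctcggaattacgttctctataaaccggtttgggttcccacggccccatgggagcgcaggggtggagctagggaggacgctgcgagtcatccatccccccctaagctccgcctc
Abca1, chr4:53159896-53160045, minus strand: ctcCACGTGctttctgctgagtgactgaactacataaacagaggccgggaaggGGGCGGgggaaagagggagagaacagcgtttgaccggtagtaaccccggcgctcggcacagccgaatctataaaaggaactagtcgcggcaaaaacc

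These windows differ in base composition. The 300 bases around the start of Cebpb are 80.7% G and C with 50 CpG, while those of Ctso are 45.3% with 5 CpG, and the other 5 genes lie between 53.0% and 62.7%. A match to the NF-kB motif stands in the Cgas window, an E-box and an Sp1 match in that of Abca1, an Sp1 match in that of Cebpb, and none of the motifs searched in the printed windows of Gatm, Rpl28, Ctso and Rpl39.

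Lost peaks lay away from genes more often than shared peaks did. A peak was placed at a gene edge when it reached within 1 kb of either end of a protein-coding gene, inside when it lay deeper in the span of a gene, and intergenic otherwise. Gene edges held 53.3% (52.3 to 54.2) of the WT peaks shared with KO, 24.6% (23.5 to 25.8) of the lost peaks and 27.0% (25.1 to 28.9) of the gained peaks. Of the lost peaks 40.1% lay inside genes and 35.2% between them, against 26.2% and 20.6% of the shared WT peaks. Gained peaks were placed much like lost ones, with 39.3% inside genes and 33.8% intergenic. Where the table of promoters gives the strand, the edges were nearly all start sites: 21% of lost, 24.3% of gained and 47.8% of shared WT peaks reached a start site, and 1.89%, 1.71% and 1.15% a gene end without a start.

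The order held when the lists were made equal, where 61.9% of shared, 33.5% of lost and 37.9% of gained peaks lay at an edge. It also held among peaks scoring 100 or more in both lists (67.8%, 40.3% and 47.3%) and with edges of 2.5 kb (58.2%, 31.1% and 34.7%). Under each of these settings the interval of the shared peaks lay above those of lost and gained peaks.

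**Figure D1:**
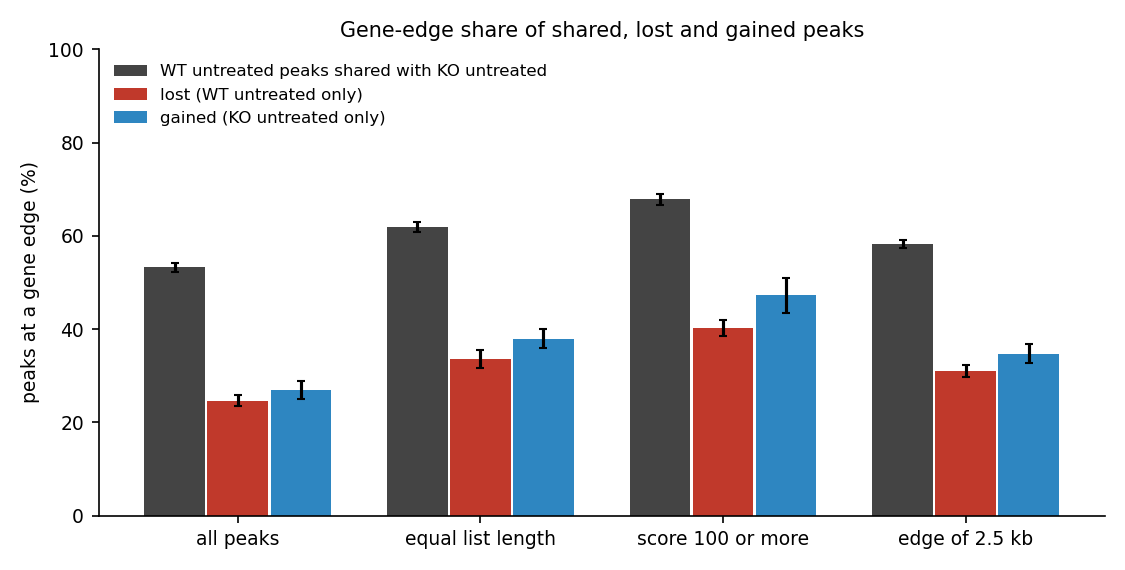
Share of peaks at a gene edge (%, from 0) among WT untreated peaks shared with KO untreated, lost peaks and gained peaks, under 4 settings; bars are the share and lines its exact 95% interval for counting error. Shared peaks stand highest in every setting, at 53.3% with all peaks and 61.9% at equal list length.

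Score and class moved together, so the loss rate was taken class by class within the quartiles of the WT score. In the lowest quartile (50.01 to 68.72) 66.7% of peaks were lost, in the second 45.0%, in the third 16.1% and in the highest 0.646%. Edge peaks were lost less often than the others at like score: 55.9% (53.0 to 58.8) against 68.8% (66.6 to 71.0) inside genes and 72.7% (70.4 to 75) between genes in the lowest quartile, and 11% (9.68 to 12.5) against 19.8% (17.7 to 22.1) and 21.1% (18.7 to 23.7) in the third. In the lowest quartile of the KO list 33.5% (30.5 to 36.5) of edge peaks, 42.5% (39.8 to 45.1) of those inside genes and 43.8% (40.8 to 46.9) of intergenic ones were gained. In the third quartile of that list the shares were 2.92% (2.2 to 3.79), 4.50% (3.24 to 6.08) and 4.22% (2.84 to 6.00), with intervals that overlap. Lost peaks were also narrow, at a median of 342 bp against 497 bp for shared WT peaks, and gained peaks at 402 bp against 557 bp for shared KO peaks.

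In the highest quartile almost every peak had a counterpart. Of 4335 such WT peaks 28 were lost, 10 at gene edges, 9 inside genes and 9 between genes. Of 3429 such KO peaks 2 were gained, at the edges of Ctso and Glrx2.

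**Figure D2:**
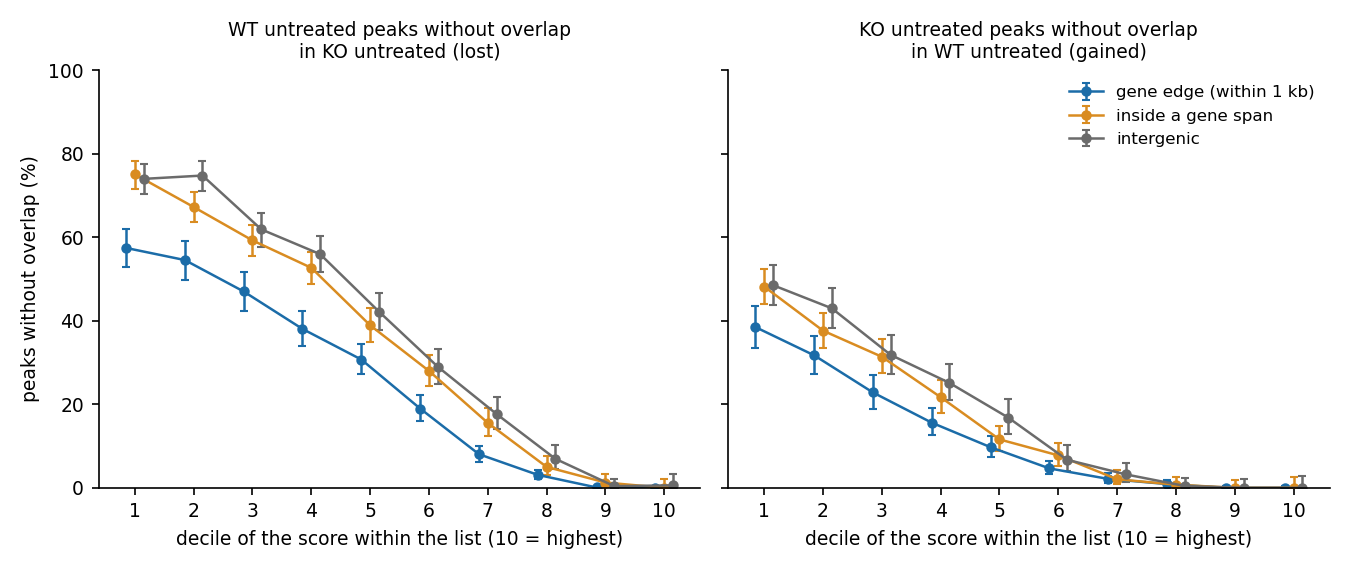
Percent of peaks without an overlapping peak in the other untreated list (y axis) against the decile of the score within the peak's own list (x axis, 10 = highest), for edge, inside and intergenic peaks; lines through the points are exact 95% intervals. The curve of gene-edge peaks runs lowest over the lower deciles in both panels, and all curves approach 0 in the highest deciles.

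The 15 lost edge peaks of highest score lay at genes of unlike function. Map3k8, which encodes the kinase TPL2 that carries Toll-like receptor signals to ERK, had the highest score, 230.93 in WT, no peak in KO, 85.9 in WT IL-4 and 105.51 in KO IL-4. At Cgas, whose product senses cytosolic DNA and makes the messenger cGAMP, the WT peak scored 171.3 and the WT IL-4 peak 124.58, and neither KO library had one. That peak (chromosome 9, 78442896 to 78443563) also covers the edge of the neighbouring gene Mto1, a mitochondrial tRNA modifier, so the lists cannot assign it to either gene.

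Dhx9, an RNA helicase, showed the same presence in both WT libraries (171.76 and 55.51) and absence from both KO libraries, and so did Rpl28, a protein of the large ribosomal subunit (179.73 and 63.55), Icam4, an adhesion molecule (181.8 and 60.69, the peak also at the edge of Icam5), and Acvr2a, an activin receptor (160.78 and 66.58). Cmpk1, a nucleotide kinase, had a peak in WT alone (161.1). H3c14, a histone H3 gene whose peak it shares with H2ac18, was missing from KO alone (189.15 in WT, and after IL-4 77.15 in WT and 98.76 in KO). The same held for Mturn (173.76, 63.8 and 56.51), Cdca7l (170.04, 92.37 and 68.35), Lrrc61 (167.28, 86.27 and 70.95) and Dvl3, which relays Wnt signals (161.52, 67.72 and 55.95). Ublcp1, a phosphatase that acts on the proteasome, had a peak in WT (182.21) and KO IL-4 (91.01), and Ccdc17 in the 2 WT libraries (160.17 and 69.79). The IL-4 libraries took no part in choosing these peaks. Of the 15 highest lost edge peaks 12 were found in WT IL-4 and 7 in KO IL-4. Over all 1371 lost edge peaks the counts were 302 and 329, and over the 28 lost peaks of the highest score quartile they were 17 each.

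Lost peaks more than 1 kb from either end of a gene's span included that of Bloc1s5, a subunit of the complex that forms lysosome-related organelles (245.12 in WT, and after IL-4 72.79 in WT and 121.77 in KO), and Nr1d2, the heme-binding repressor REV-ERB beta (188.27 in WT, 57.24 in KO IL-4, none in WT IL-4). The Bloc1s5 peak covers a start site that the promoter table places within the span, and so belongs to a promoter. Others lay in Snx29, Myof, Zdhhc18 and Camk2d, with WT scores of 192.18, 190.94, 187.6 and 177.46. Of the 8 highest inside genes 5 were found in WT IL-4 and 7 in KO IL-4. Over all 2233 lost peaks inside genes the counts were 365 and 376. The intergenic peaks included ones 37756 bp from Rbx1 (209.86) and 1046 bp from Gpr176 (177.02), both found again in WT IL-4 (59.49 and 66.81) and in KO IL-4 (91.4 and 61.74).

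A single lost peak stood far above all others. It lay at the start of the assembled sequence of chromosome 9 (2999940 to 3005431), 329800 bp from the nearest protein-coding gene, Alkbh8, was 5492 bp wide and scored 2677.51 in WT. No KO or WT IL-4 peak overlapped it, and a KO IL-4 peak did (92.18). Among lost peaks with no KO peak within 500 bp the next had 245.12. Neither repeat content nor mapping was checked at the chromosome 9 peak, so whether it marks open chromatin or repeated sequence was not tested.

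The gained edge peaks of highest score also lay at genes of unlike function. The first was at Ctso, the gene of the lysosomal protease cathepsin O, with 162.79 in KO, no peak in WT, 54.16 in WT IL-4 and none in KO IL-4. At Glrx2, a mitochondrial glutaredoxin, the values were 158.51 in KO and 77.32 in WT IL-4, and at Rpl39, an X-linked ribosomal protein gene, 146.88 and 57.71, with no peak in WT or KO IL-4 at either gene. These 3 peaks, gained in KO when untreated, were found with IL-4 in the WT library and not in the KO one.

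Abca1, the exporter of cellular cholesterol, had an edge peak in KO (121.42) and in no other library. The same was found at Ap2a2, a subunit of the clathrin adaptor AP-2 (145.2), Ppp4c, a protein phosphatase (138.38), Sphk2, a sphingosine kinase (137.53), Fes, a tyrosine kinase of myeloid cells (136.12), Rdx, the membrane linker radixin (126.93), and Ctps2, a CTP synthase (121.45). The Sphk2 peak also overlaps the span of the ribosomal protein gene Rpl18, so the lists cannot assign it to either gene. KO IL-4 peaks overlapped those of Mdp1 (137.79 in KO, 73.26 in KO IL-4), Pcbp1, an RNA- and iron-binding protein (133.15 and 67.22), and Nupr1, a stress-induced nuclear protein (123.66 and 72.54). Of the 15 highest gained edge peaks 5 were found in WT IL-4 and 4 in KO IL-4. Over all 568 gained edge peaks the counts were 104 and 118.

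Within gene spans, the highest gained peaks lay in Dlgap4 (149.25, again over a start site of the promoter table), Pdlim7 (143.2) and Adam8, a surface metalloprotease of leukocytes (134.64), and none of these overlapped a peak of an IL-4 library. Between genes, the peak 5069 bp from Klf9, a glucocorticoid-induced transcription factor, scored 131.43 in KO and was found in both IL-4 libraries (104.95 in WT, 80.34 in KO), so that only WT untreated lacked it. Another lay 77958 bp from Map3k1 (138.12) and was found in KO alone.

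**Figure D3:**
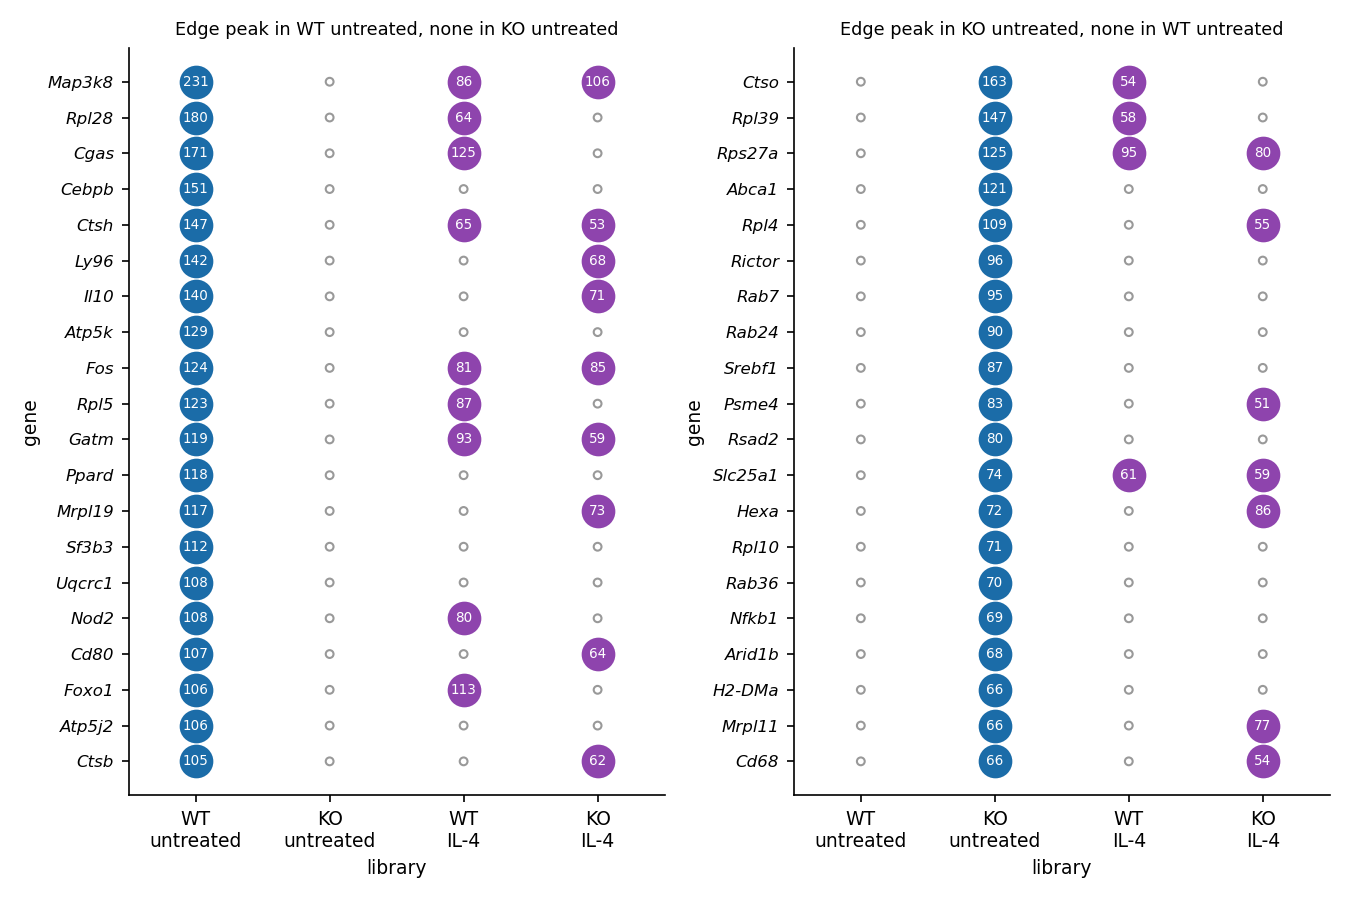
Edge peaks of list genes in the 4 libraries, for the 20 genes with the highest lost (left) and gained (right) scores; a filled circle is a peak, the number in it the authors' score, which ranks peaks within a library only, and an open circle means no edge peak. By the way the genes were chosen the KO untreated column is empty on the left and the WT untreated column on the right, so only the IL-4 columns are independent of that choice.

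Function was described gene by gene. Of the 8355 protein-coding genes with an edge peak in WT, 1264 had none in KO, which is 15.1%, and of the 7616 with one in KO, 525 had none in WT, which is 6.89%. When a gene was counted only if no peak of the other library came within 500 bp of its peak, the counts were 1239 (14.8%) and 497 (6.53%). The lost edge peaks of all genes had a median score of 74.1 and the kept ones 173.7. Below, each list is read against these shares. The intervals of most lists include them.

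Oxidative phosphorylation, the list with the most WT edge peaks, had 17 of 78 genes lost (21.8%, 13.2 to 32.6) and 2 of 63 gained (3.17%, 0.387 to 11). Both intervals include the shares of all genes. The lost genes include ones of complex I (Ndufa3, Ndufa7, Ndufa9, Ndufb8, Ndufb9, Ndufb10, Ndufc1, Ndufs4 and the assembly factor gene Ndufaf6), complex III (Uqcrc1, Uqcr10, Uqcr11), complex IV (Cox6c) and the ATP synthase (Atp5k, Atp5j2, Atp5o). The highest WT scores were 129.13 at Atp5k, 108.28 at Uqcrc1, 105.71 at Atp5j2 and 101.25 at Ndufaf6. Of these 4 peaks only that of Ndufaf6 was found with IL-4, in KO (71.36). The lost peaks of the list had a median score of 70.2 and the kept ones 172.7, close to the values over all genes. The 2 gained genes were Ndufaf3 (64.43 in KO) and Atp5l (57.31). At equal list length the count turned, with 5 lost and 8 gained, beside 778 lost (12.1%) and 894 gained (13.7%) of all genes. All 5 lost genes had no KO peak at any score, and all 8 gained ones had a WT peak that the equal-length limit had left out. Under that stricter reading 371 of all genes were lost (5.78%) and 227 gained (3.48%). In the IL-4 libraries 56 genes of the list had an edge peak in WT and 57 in KO.

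Mitochondrial ribosomal protein genes stood nearly alike, with 13 of 62 lost (21%, 11.7 to 33.2) and 1 of 50 gained (2.0%, 0.0506 to 10.6). The highest lost scores were 116.89 at Mrpl19, 89.57 at Mrpl10, 88.4 at Mrpl33 and 81.78 at Mrpl12, of which the Mrpl19 peak was found in KO IL-4 (73.06) and the Mrpl10 peak in both IL-4 libraries (75.98 in WT, 64.63 in KO). Mrpl46 and Mrps11 share 1 lost peak (74.16). The gained gene was Mrpl11 (66.17 in KO, 77.28 in KO IL-4). At equal list length 6 were lost and 5 gained, and of the 6 only 1 had no KO peak at any score. In the IL-4 libraries 42 genes had an edge peak in each genotype. Mitochondrial carriers, which move metabolites across the inner membrane, had 5 of 35 lost (14.3%), Slc25a11 (84.2), Slc25a16 (80.87), Slc25a20 (73.65), Slc25a10 (54.57) and Slc25a45 (52.41), and 1 of 31 gained, the citrate carrier Slc25a1 (74.19). No carrier was lost at equal list length, and 1 was gained.

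The genes of glycolysis kept their peaks. Of 20 with an edge peak in WT none was lost, which with 20 genes allows a share of up to 16.8%, and of 21 in KO 1 was gained, the lactate dehydrogenase gene Ldhb (64.79). At equal list length 3 were lost, each with a KO peak under the score limit. Among the sensors of energy and nutrients 4 of 23 were lost: Foxo1, a transcription factor restrained by insulin signalling (106.1 in WT, 112.65 in WT IL-4, none in either KO library), Nrf1, a regulator of mitochondrial genes (81.63), Keap1 (58.29) and Hif1a (55.02). The 1 gained of 20 was Rictor, a subunit of mTOR complex 2 (95.66 in KO alone).

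Inflammatory and NF-kB genes showed the highest lost share of any list with 10 or more WT edge peaks, 7 of 19 (36.8%, 16.3 to 61.6), an interval that lies above the 15.1% of all genes. They were Map3k8, Il10, the gene of an anti-inflammatory cytokine (139.77 in WT, 71.44 in KO IL-4), Cd80, a ligand of T cell co-stimulation (106.93 in WT, 64.05 in KO IL-4), Nfkbiz (66.01), Nlrp3, the inflammasome sensor (62.51 in WT, and after IL-4 58.02 in WT and 64.22 in KO), Icam1 (57.45) and Hif1a. The list was one of many looked at, and no allowance for that number was made in the interval. Of the 7 genes 2 had a peak in WT IL-4 and 4 in KO IL-4. The list also had a high gained share, with 4 of 16 (25%, 7.27 to 52.4), an interval that likewise lies above the 6.89% of all genes. The gained genes were Nfkb1, the gene of the p105/p50 subunit (69.38), Cd40 (62.39), Il12b (58.51) and Il23a (57.17), of which the last 2 encode subunits of IL-12 and IL-23. At equal list length 6 were lost and 1 gained, Nfkb1, and 3 of the 6 lost genes had no KO edge peak at any score. By locus, the gene with 10 kb on either side, 5 of 29 had WT peaks and no KO peak, against 12.2% of all loci with a WT peak, and 2 of 26 the reverse, against 4.69%, so the high lost share was not seen by locus.

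Receptors of innate sensing differed in both directions. Of 14 pattern recognition genes with a WT edge peak 4 were lost (28.6%): Ly96, the MD-2 partner of TLR4 (142.04 in WT, 68.5 in KO IL-4), Nod2, a sensor of bacterial muramyl dipeptide (108.03 in WT, 79.62 in WT IL-4), Cd14, a co-receptor for lipopolysaccharide (82.73), and Tlr9, a sensor of unmethylated DNA (65.01). Gained were 3 of 13: Tirap, a TLR adaptor (59.21 in KO, 90.34 in WT IL-4), Tlr2 (57.19) and Clec4e (51.59). Chemokine genes had 3 of 10 lost, Ccl24 (97.09), Cxcr4 (96.19) and Cxcl2 (52.53), and 0 of 7 gained. The gained peaks of these lists scored 59.21 or less in KO.

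Interferon genes had nearly equal numbers lost and gained. Of 26 with a WT edge peak 2 were lost (7.69%, 0.946 to 25.1), Cgas (171.3) and the GTPase gene Igtp (71.93). Of 27 in KO 3 were gained (11.1%, 2.35 to 29.2): Rsad2, the antiviral protein viperin (80.23 in KO alone), Ifnar2, a chain of the type I interferon receptor (65.51 in KO, and after IL-4 59.06 in WT and 69.34 in KO), and Irgm1 (50.07 in KO, 72.92 in KO IL-4). Irf1, a transcription factor of the response, kept its peaks in both untreated libraries. Its edge peak scored 91.62 in WT and 50.38 in KO, and the peak 5734 bp away in WT 285.65 and 194.54.

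Of the factors that define the macrophage, most kept an edge peak and 3 of 19 did not (15.8%, 3.38 to 39.6), which is close to the share of all genes. Cebpb, a C/EBP factor of myeloid differentiation and inflammation, had its peak (151.16, chromosome 2, 167688489 to 167689291) in WT alone. Irf8 (73.77) and Spi1 (53.2) were likewise found in WT alone. Spi1 had peaks elsewhere: WT held a second one inside the gene (58.8, overlapped in WT IL-4 by one of 69.17), and KO a different one 1786 bp from the gene end (88.7). Runx1 was the 1 gained of 17 (62.34). Csf1r, the M-CSF receptor gene, had no edge peak and kept its intragenic peak in every library (100.81 in WT, 157.55 in KO, and after IL-4 138.81 in WT and 87.88 in KO).

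Among surface receptors and complement 5 of 17 were lost (29.4%, 10.3 to 56.0): C1qa (97.78), Cd14 (82.73), Fcer1g (64.09), Adgre1, the gene of F4/80 (57.74 in WT, and after IL-4 85.8 in WT and 68.47 in KO), and Fcgr1 (55.13). Gained were 4 of 16 (25%, 7.27 to 52.4), the same share as in the inflammatory and NF-kB list and an interval above the 6.89% of all genes. They were Laptm5 (101.98), Cd68 (65.78), Csf2rb (63.75) and Itgam (56.27), of which Laptm5 did not pass the 500 bp rule. The order turned at equal list length, with 1 of 10 lost and 3 of 12 gained. Fos (123.91 in WT, and after IL-4 80.63 in WT and 84.67 in KO) and Fosb (76.69 in WT alone) were the 2 lost of 16 AP-1 and immediate early genes, and none of 14 was gained. MHC class II genes, with edge peaks at only 4 genes in each library, had H2-DMb1 (57.24) and H2-Ab1 (52.24) lost and H2-DMa (66.36) and Cd74 (50.9) gained.

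Lipid genes had 6 of 23 lost (26.1%, 10.2 to 48.4), led by the nuclear receptor gene Ppard (118.37 in WT alone), the fatty acid chaperone Fabp5 (93.98 in WT, 60.13 in WT IL-4), Rxrb (83.76 in WT, 64.11 in WT IL-4) and Nr1h3, the oxysterol receptor LXR alpha (83.46 in WT, and after IL-4 65.8 in WT and 51.32 in KO). Acaca and Lpl, with 53.43 and 54.9, were the others. The 2 of 19 gained were Abca1, a target of LXR, and Srebf1, the regulator of fatty acid synthesis (87.0 in KO alone). Both were also gained at equal list length with no WT edge peak at any score, where the list as a whole turned to 2 of 15 lost and 4 of 17 gained.

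In the lysosome list 6 of 30 were lost (interval 7.71% to 38.6%) and 3 of 27 gained (11.1%). Lost were the protease genes Ctsh (146.73 in WT, and after IL-4 65.07 in WT and 53.19 in KO), Ctsb (105.35 in WT, 61.81 in KO IL-4) and Ctsz (65.67), Lamp2 (85.71 in WT, and after IL-4 65.16 in WT and 79.81 in KO), and the proton pump genes Atp6v0e (61.71) and Atp6v0a1 (58.87). The gained genes included Ctso and Hexa, which encodes an enzyme of glycolipid breakdown (72.11 in KO, 85.54 in KO IL-4). The lysosome list turned at equal list length to 2 of 22 lost and 5 of 25 gained. Rab genes, switches of vesicle traffic, had 3 of 35 lost (8.57%) and 4 of 36 gained (11.1%), with Rab7, the late endosome Rab (95.1), Rab24 (90.02), Rab36 (70.31) and Rab11a (60.46) found in KO alone.

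Of the cytosolic ribosomal protein genes 6 of 70 were lost (8.57%, 3.21 to 17.7) and 4 of 68 gained (5.88%, 1.63 to 14.4). The highest lost were Rpl28 and Rpl5 (122.53 in WT, 86.9 in WT IL-4), each found in both WT libraries and neither KO library. The gained were Rpl39, Rps27a (125.22 in KO, and after IL-4 94.84 in WT and 79.79 in KO, a peak shared with Clhc1), Rpl4 (108.8 in KO, 54.97 in KO IL-4) and the X-linked Rpl10 (70.58 in KO alone). All 4 were gained at equal list length too, with no WT edge peak at any score. The difference between the mitochondrial and the cytosolic list was not tested, and their intervals overlap.

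The 2 lists of chromatin genes had lost and gained shares whose intervals include those of all genes, 15.1% and 6.89%. SWI/SNF and other remodeller genes had 1 of 20 lost (5%, 0.127 to 24.9), Smarcd1 (52.79), and 2 of 21 gained, Arid1b (67.95) and Smarce1 (53.22). Arid1a had no edge peak in any library, and a peak inside the gene was found in KO (52.71), WT IL-4 (59.66) and KO IL-4 (50.71) but not in WT. Of the writers, erasers and readers of histone and DNA marks 3 of 17 were lost, Ep300, an acetyltransferase (101.43), Brd2 (65.24) and Kat2a (59.4), and 1 of 15 gained, Kdm6b (115.1), where only the reach of the peak differed.

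The remaining lists also had lost and gained shares whose intervals include those of all genes. Splicing factors had 4 of 40 lost, Sf3b3 (111.63), Sf3a2 (92.91), Tra2a (72.95) and Snrpb (54.04), and 0 of 36 gained. Proteasome genes had 4 of 36 lost, Psmb5 (90.65), Psmc1 (85.12), Psme1 (67.98) and Psmd9 (54.54), and 1 of 33 gained, Psme4 (83.45). Cell cycle genes had 1 of 32 lost (3.13%), Rb1 (91.43), and 2 of 33 gained, Ccnd3 (64.78) and Bub1 (62.82). Housekeeping genes had 3 of 19 lost, Tubb5 (74.3), Hsp90ab1 (52.86) and Actb (51.41), the same share as the lineage factors, and none gained. In all, 15 of the 27 function lists had a lost share above that of all genes.

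**Figure D4:**
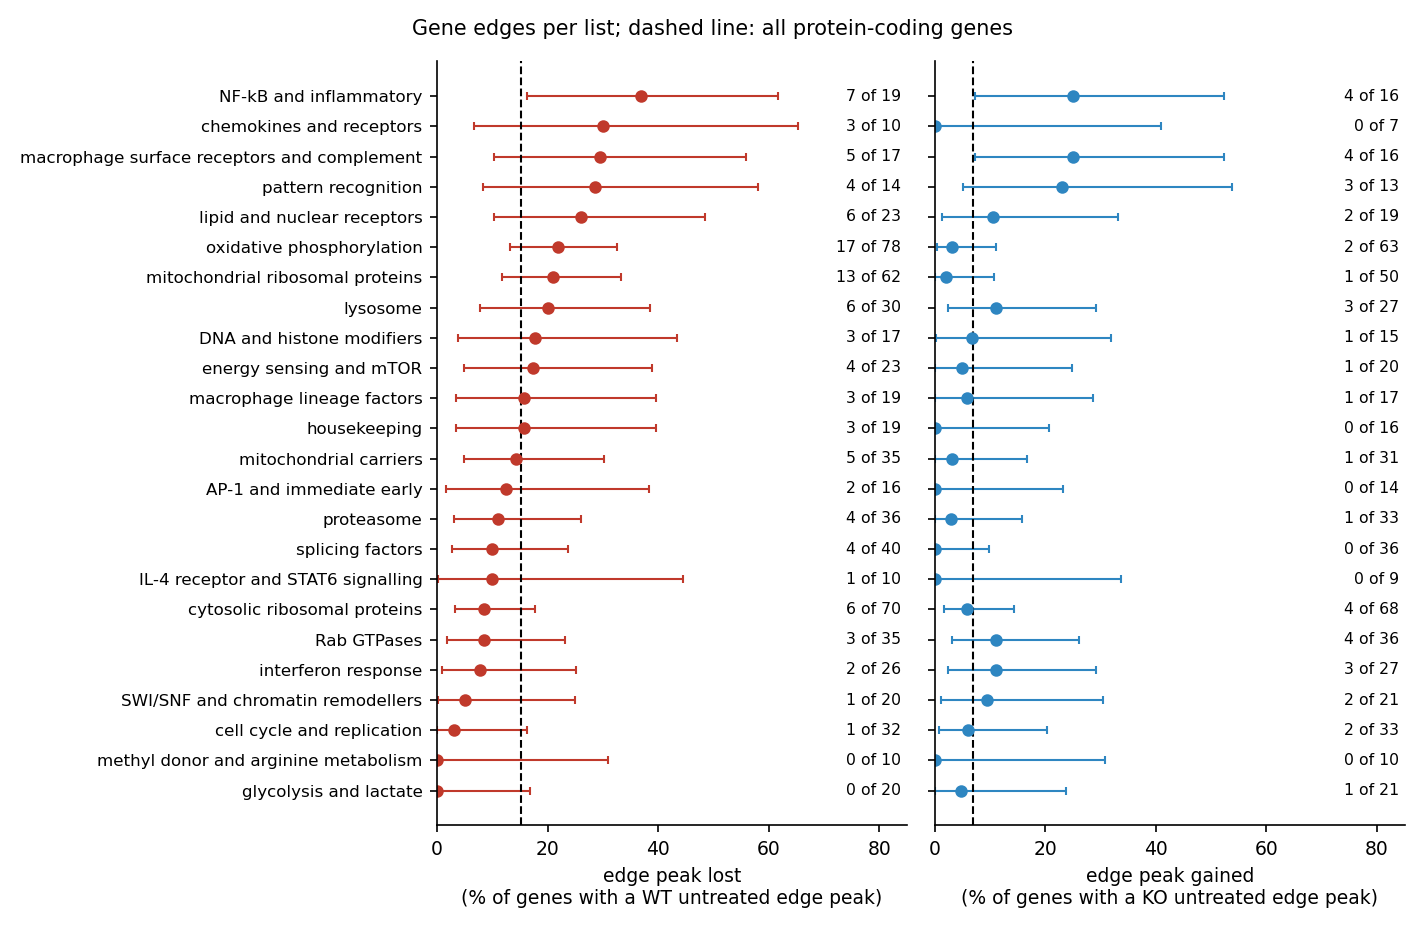
Percent of genes per list whose edge peak was lost (left, of genes with a WT untreated edge peak) or gained (right, of genes with a KO untreated edge peak), for the function lists with at least 10 WT edge peaks; points are shares, lines exact 95% intervals for counting error, and the dashed lines the shares of all genes, 15.1% and 6.89%. The left interval of the NF-kB and inflammatory list lies to the right of its dashed line, and those of oxidative phosphorylation and of glycolysis reach across it. In the right panel the intervals of the NF-kB and inflammatory list and of the surface receptor and complement list lie to the right of the dashed line.

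Some loci, each a gene with 10 kb on either side, lost all of their peaks. Neighbouring loci can share peaks, as those of Actb and Fbxl18 did, so the counts are not of separate regions. Of the 1941 loci with 3 or more WT peaks 50 had every one of them lost, which is 2.58%, and of the 1158 with 3 or more KO peaks 7 had all gained, which is 0.604%. Mtss1, a membrane-bending protein gene, had 6 lost peaks with scores from 50.03 to 129.89, and 3 WT IL-4 and 2 KO IL-4 peaks at the locus. Actb had 4 (up to 85.67). With 3 each, the emptied loci included some of known roles in macrophages, picked after the values were seen. They were Icam1 (up to 181.8, the peak at the edges of its neighbours Icam4 and Icam5), Msr1, the scavenger receptor (131.88), Tnfrsf1a, the TNF receptor (118.41, shared with Plekhg6), Nr1h3 (88.63), Retn (77.13) and the high-affinity IgG receptor gene Fcgr1 (72.29). The loci with all peaks gained were Rreb1 (up to 101.86), Heg1 (76.17), Ubxn11 (74.68), the cytokine receptor gene Il21r (64.27), Speer4f1 (60.55), Pag1 (59.73) and Ube2l3 (56.78).

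MicroRNA genes were counted by peaks within 1 kb of the hairpin. Of 76 hairpins with a WT peak 17 had none in KO (22.4%), and of 70 with a KO peak 11 had none in WT (15.7%). Counted in a like way at gene edges, the shares of all protein-coding genes were 15.1% lost and 6.89% gained. Counted per peak, which is another measure, they were 32.1% of WT peaks lost and 15.4% of KO peaks gained. The differences were not tested. Hairpins in a cluster share a peak, so the hairpin counts are not counts of separate peaks, and 8 hairpins were gained by the 500 bp rule. One lost peak (96.86, chromosome 8, 84207809 to 84208140) lay just before the cluster of Mir23a, Mir27a and Mir24-2, and no IL-4 peak overlapped it. Gained peaks lay by Mir140 (68.85) and Mir193a (68.82), again with no IL-4 counterpart. The mature sequences, from RefSeq, are given for these well-studied microRNAs near lost or gained peaks, with the seed (bases 2 to 8) in capitals; no 2 of them share a seed.
miR-23a-3p: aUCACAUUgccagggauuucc
miR-27a-3p: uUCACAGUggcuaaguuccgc
miR-24-3p: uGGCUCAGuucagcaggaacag
miR-140-3p: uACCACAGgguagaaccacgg
miR-193a-3p: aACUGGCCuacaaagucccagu
The peak lists say only that chromatin near these hairpins was called open in one library and not in the other, and hold no measure of the microRNAs.

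The letters of the promoters were compared between groups of genes. A promoter window is the 250 bases before and 50 after the start of a gene, and it was put in the group "both", "lost" or "gained" by the peaks that overlap it. The windows numbered 6391 with a peak in both untreated libraries, 1049 with a lost and 436 with a gained peak, of 21237 in all. An Sp1 match (GGGCGG, either strand, as for all motifs) was found in 72.1% (71.0 to 73.2) of windows with both, 63.9% (60.9 to 66.8) of lost, 59.9% (55.1 to 64.5) of gained and 46.2% of all windows. CpG-rich sequence went with it, as the median count of CpG was 23 in both, 21 in lost, 21.5 in gained and 13 in all windows, and the part of base composition in the Sp1 difference was not tested.

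The motifs of the macrophage factors did not separate lost from gained windows beyond their intervals. C/EBP (TTGCNNAA) was found in 7.53% (6.01 to 9.30) of lost, 5.73% (3.74 to 8.35) of gained, 7.70% of both and 10.2% of all windows. The NF-kB motif was in 6.96% (5.49 to 8.67) of lost and 4.82% (3.01 to 7.27) of gained, beside 6.65% of both and 5.76% of all. The ETS core (GGAAGT) was in 33.1% of lost, 35.3% of gained, 31.7% of both and 24.8% of all, and the longer PU.1 form (GAGGAAGT), which contains it, in 3.62%, 5.05%, 3.24% and 3.13%. For AP-1 (TGANTCA) the shares were 4.96% of lost, 6.65% (4.50 to 9.41) of gained, 3.90% (3.44 to 4.40) of both and 6.99% of all.

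Other motifs gave shares in lost and gained windows whose intervals overlap. The interferon element ISRE was in 3.91% of lost, 3.90% of gained, 2.57% of both and 3.34% of all windows, the STAT6 site in 4.77%, 4.82%, 5.01% and 6.34%, and CRE (TGACGTCA) in 2.76%, 3.90%, 4.35% and 2.24%. In the same order the E-box (CACGTG) was in 11.1%, 14.2%, 11.3% and 7.84%, YY1 (AAGATGGC) in 5.91%, 5.73%, 5.55% and 3.05%, the NRF1 site in 3.34%, 3.44%, 2.86% and 1.33%, and a CTCF core in 0.191%, 0.459%, 0.0782% and 0.132%. A match is a run of letters in the reference and not a measured binding site.

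The IL-4 libraries, which the choice of lost and gained peaks did not use, were then searched for these peaks. The WT IL-4 list held 18.1% (17.1 to 19.1) of the lost peaks and the KO IL-4 list 19.2% (18.2 to 20.3). Of the 5565, 578 were found in WT IL-4 only, 644 in KO IL-4 only, 427 in both and 3916 in neither. The log2 ratio of WT IL-4 only over KO IL-4 only was -0.16 (-0.32 to 0.01). Its interval lay below 0 with no peak of the other list within 500 bp (-0.35 to -0.01) and with the WT list cut to the KO length (-0.48 to -0.07). It also did so with a score of 100 or more in both lists (-0.38 to -0.03), where a lost peak can have a KO peak under 100. The 761 WT peaks of 100 or more without any KO peak gave -0.36 (-0.72 to 0.001). Shared WT peaks leaned the same way, with 1289 in WT IL-4 only and 1507 in KO IL-4 only. Peaks that KO lacked when untreated were thus not found less often in KO than in WT after IL-4, in lists of 10443 and 9930 peaks. At equal list length, too, a lost peak can have a KO peak under the score limit. There 40.6% (38.5 to 42.7) were found in the WT list after IL-4 and 42.3% (40.2 to 44.4) in the KO list.

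Of the gained peaks the WT IL-4 list held 14.7% (13.2 to 16.3) and the KO IL-4 list 16.5% (15 to 18.2). The counts were 218 in WT IL-4 only, 256 in KO IL-4 only, 92 in both and 1540 in neither, a log2 ratio of -0.23 (-0.50 to 0.03). At equal list length that ratio was 0.05. By class, lost edge peaks were found for 22.0% in WT IL-4 and 24.0% in KO IL-4, those inside genes for 16.3% and 16.8%, and intergenic ones for 17.2% and 18.7%. Shared WT peaks were found for 68.5% and 70.3%. At like score shared peaks were found more often than lost ones, with 42.7% against 19.0% in WT IL-4 for the second score quartile and 68.2% against 39.0% for the third.

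**Figure D5:**
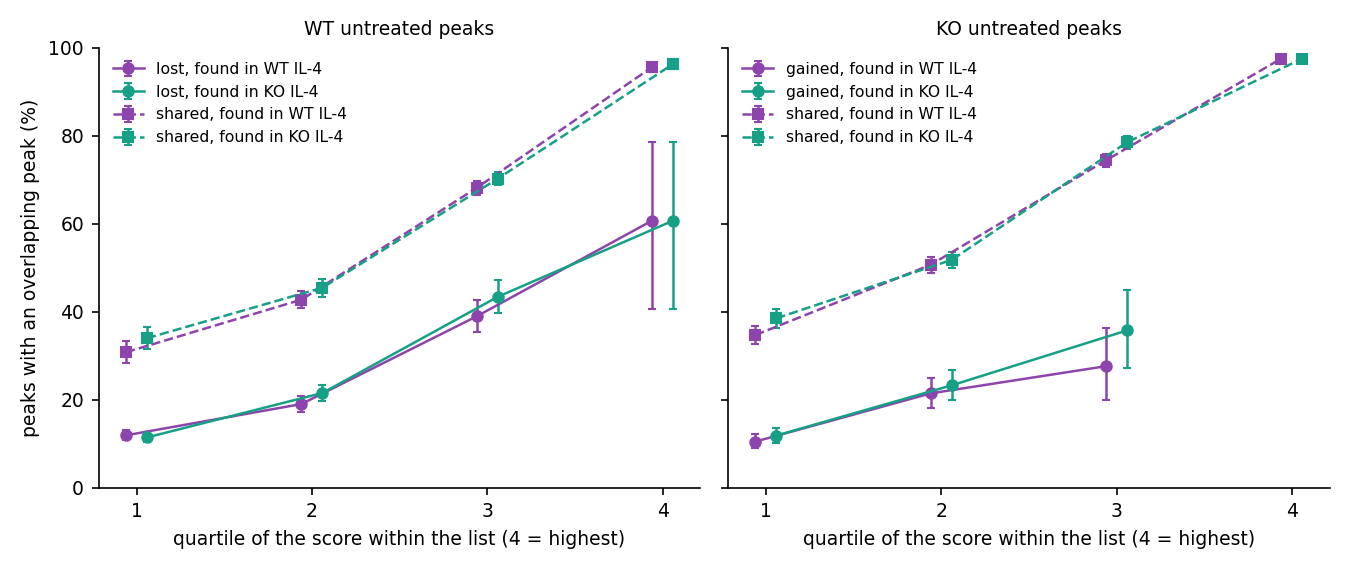
Percent of WT untreated peaks (left) and KO untreated peaks (right) with an overlapping peak in an IL-4 library, by quartile of the score in their own list (4 = highest), for lost or gained peaks (circles, solid) and shared peaks (squares, dashed); lines are exact 95% intervals. The WT IL-4 and KO IL-4 curves of lost peaks run together, at 39.0% and 43.4% in the third quartile, and below those of shared peaks; the 2 gained peaks of the highest quartile are not drawn.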

How the data were processed

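ATAC-seq peak lists of 4 libraries, 1 per group (WT or Slc6a8-/y, untreated or IL-4), were used as deposited. Per the submitters' processing notes, the build was mm10 and the tools included MACS 1.4.2, Bowtie2 2.2.5 and HOMER. Roles, parameters and a HOMER version are not stated there. Column 5 is the score the authors deposited for each peak. Its values have the pattern of a multiple of a log10 p, but no header states the unit. The sources used here give no read depth, which leaves the precision of any single peak call unknown.

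A shared base (1 bp) counted as overlap. Gene spans were those of 21883 protein-coding genes (RefSeq, GRCm38.p6), and strand, start sites and sequence came from a RefSeq promoter table that holds 17491 of them. The 35 gene lists held 1089 entries, of which 1 was matched by an older symbol and 2 (Mx2, Trac) were not matched. The comparison, lists and rules were chosen with earlier results of these data known. Genes named are the creatine genes, Spi1, Cebpb, Csf1r, Irf1 and Arid1a, those at the 15 highest lost and gained edge peaks and the 8 highest inside and intergenic ones with no peak of the other library within 500 bp, and up to 4 genes per function list and direction by score; further list genes, emptied loci and microRNAs were named after their values were seen. A few genes covered by this rule are not reported here.

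Alternatives were a reciprocal overlap of 50%, the 9930 highest-scoring peaks of each list, a score of 100 or more, no peak within 500 bp, autosomes only, edges of 2.5 kb and loci of 10 kb. Simulated lists with planted losses and gains served to test the overlap code. The software was Python 3.11.15 with Matplotlib 3.10.9, SciPy 1.17.1, pandas 2.3.3 and NumPy 2.4.6.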

Additional observations from a re-analysis of the deposited data

Results flagged for a closer look

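The balance of gained and lost peaks between the genotypes differed between the treatments. In untreated cells the log2 ratio of gained over lost peaks, KO against WT, was -1.40, from 2106 gained and 5565 lost. After IL-4 it was 0.25 (0.17 to 0.32), from 3082 gained and 2594 lost. The counts leaned opposite ways in the 2 pairs of libraries. With 1 library per group the difference was not tested, and list length moved with it: KO held fewer peaks than WT untreated (13714 against 17339) and more after IL-4 (10443 against 9930).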

How the results depend on the processing

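With 1 library per group no library could be left out. No paired analysis was possible because the labels give no replicate numbers beyond a single library per group. The count of lost peaks was 2167 at equal list length, 3088 with a score of 100 or more in both lists and 761 with such a score in one list and no overlapping peak of any score elsewhere; gained peaks numbered 700 and 94 under the last pair. The ratio of gained over lost (log2) was -1.25 with a reciprocal overlap of 50%. It was -2.14 with a score of 100 or more in both lists, and -3.02 with that score in one list and no peak in the other. A cut of 100 is not alike in the 2 lists, as shared peaks had a median score of 134.3 in WT and 106.8 in KO. Those ratios therefore do not show that loss was stronger among high peaks. At equal list length the ratio was 0.0172 (-0.07 to 0.10), which is near 0 by construction. Cutting the WT list alone to the KO length, an alternative added after the data were seen, gave 3093 lost peaks, a ratio of 0.0305, again imposed by equal lengths, 62.7% of regions shared, and edge shares of 55.1% for shared, 26.5% for lost and 29.5% for gained peaks. The shared percent of regions was 63.9% at equal list length. Edge shares of shared, lost and gained peaks were 61.9%, 33.5% and 37.9% at equal list length, 67.8%, 40.3% and 47.3% with a score of 100 or more, and 58.2%, 31.1% and 34.7% with edges of 2.5 kb; with reciprocal overlap those of lost and gained peaks were 28.0% and 32.0%. In each of these the shared peaks stood highest. For gained peaks the log2 ratio of WT IL-4 only over KO IL-4 only turned to 0.0527 at equal list length. Over all genes 778 edge peaks were lost and 894 gained at equal list length, or 371 and 227 when, as added after the data were seen, the other list held no edge peak at any score. Of the values of these main results under alternatives, 34 moved by less than their counting error or 1.5 times, 29 moved by more and 3 changed sign. Of those of single gene lists 239 moved by less and 111 by more. Autosomes alone moved none of the main results beyond that. Depth limits every absence: a peak that was not called may lie under the threshold of 50.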
